A study of Oryza sativa Indica Group with 16 samples.

Results

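The comparison set 2 pools of rice lines side by side after the same salt treatment: the tolerant bulk and the sensitive bulk, each a pool of recombinant inbred lines from a cross of the salt-tolerant variety CSR27 with the salt-sensitive variety MI48. Its members were the 4 arrays labelled as stressed bulks, 2 of the tolerant and 2 of the sensitive bulk, out of 16 arrays in the series. Seedlings were 10 days old, and salt treatment meant 150 mM NaCl for 24 h. The 4 control arrays of the same bulks, 2 of each and without salt, shared the estimate of the spread and gave the same difference without salt. A bulk mixes the genomes of several lines, so a value describes the pool and no single line. The tissue is labelled as seedlings, and each group's 2 arrays as biological replicates, with no word on how plants were divided between them. A p-value therefore measures the spread between these arrays, which may be technical, and 2 arrays a group limit the precision of every value.

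Salt reaches a rice seedling as osmotic stress and as sodium entering the shoot. Seedlings answer with abscisic acid and calcium signalling, with dehydrins and other protective proteins, with ion transporters that keep sodium out of leaves, and with a slowing of photosynthesis and growth. Tolerant and sensitive varieties differ in how far each of these goes, and pooling lines by their tolerance averages out the parts of the genome that are unlinked to it.

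Signals are probe set intensities scaled to a common median over the 8 bulk arrays. Differences are log2(scaled signal + 3.98), tolerant minus sensitive, which understates the folds of dim probe sets. Testing was limited to the 32996 of 57258 with a scaled signal of at least 18.3 on 2 or more of the 8 arrays. Deposited medians were 18.7 and 19.3 on the tolerant salt arrays and 16.8 and 14.8 on the sensitive salt arrays, and the 8 bulk arrays correlated across probe sets at Spearman rho of 0.926 to 0.964. Of the 16 arrays, 2 arrays of CSR27 held no rice signal (rank correlation with any other array at most 0.01), and no parent array entered the fit. Leaf markers (Rubisco small subunit, Rubisco activase, light-harvesting and photosystem proteins) were bright, with median signals of 3330 and 3540 on the tolerant and 5310 and 5700 on the sensitive salt arrays. Root markers had medians of 49.0 and 60.7 against 50.7 and 50.3, and seed markers 24.8 and 22.6 against 31.9 and 32.5. In a whole seedling, fewer cells of a type and less RNA per cell cannot be told apart.

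Under salt, 423 probe sets differed between the tolerant and the sensitive bulk at an adjusted p under 0.05 (limma, Benjamini-Hochberg), 1.28% of those tested. Of these, 237 were higher in the tolerant bulk (0.718%) and 186 were lower (0.564%). Among the higher were a mannanase, a jasmonate repressor, metallothioneins and the calcium-linked kinase CIPK10. Among the lower were chloroplast thioredoxin m, Rubisco activase and other photosynthesis genes, ferredoxin-dependent glutamate synthase, the salt-inducible lectin gene salT and the defence gene PBZ1. The differences ran from 0.54 to 2.86 for the higher and from 0.55 to 3.58 in size for the lower probe sets, 134 and 81 of them over 1 on the log2 scale. In all 423 the tolerant salt arrays lay both above or both below the sensitive ones, as they did for 33.8% (above) and 17.5% (below) of all probe sets tested. At an unadjusted p under 0.05 (limma) were 4950 of all 32996 under salt. The unadjusted counts given below for lists under salt are to be read beside that share.

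How many probe sets passed depended strongly on the arrays and on the model of the spread. Without tolerant salt replicate 1, and without tolerant salt replicate 2, limma called 0 (3513 and 3034 at an unadjusted p under 0.05). Without sensitive salt replicate 1 the count was 14, and without sensitive salt replicate 2 it was 4. Leaving out tolerant control replicate 1 or 2 left 168 or 170, while leaving out sensitive control replicate 1 or 2 raised the count to 2419 or 2435. A fit of the 4 salt arrays alone called 1700. Without an intensity trend in the prior of the spread limma called 0 (4128 at an unadjusted p under 0.05), as it did with all 16 arrays (145) or with the 14 that held rice signal (883). Quantile normalization moved the split to 349 higher and 574 lower, beside 237 and 186, where median scaling left the median of all differences at 0.10 and quantile normalization at 0.02. The 423 kept their sign in each of these fits wherever they were tested. Leaving out 1 array could not reverse a sign, since the salt arrays did not overlap for any of them. Most other fits use the same 4 salt arrays, so a kept sign is no independent support.

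**Figure D1:**
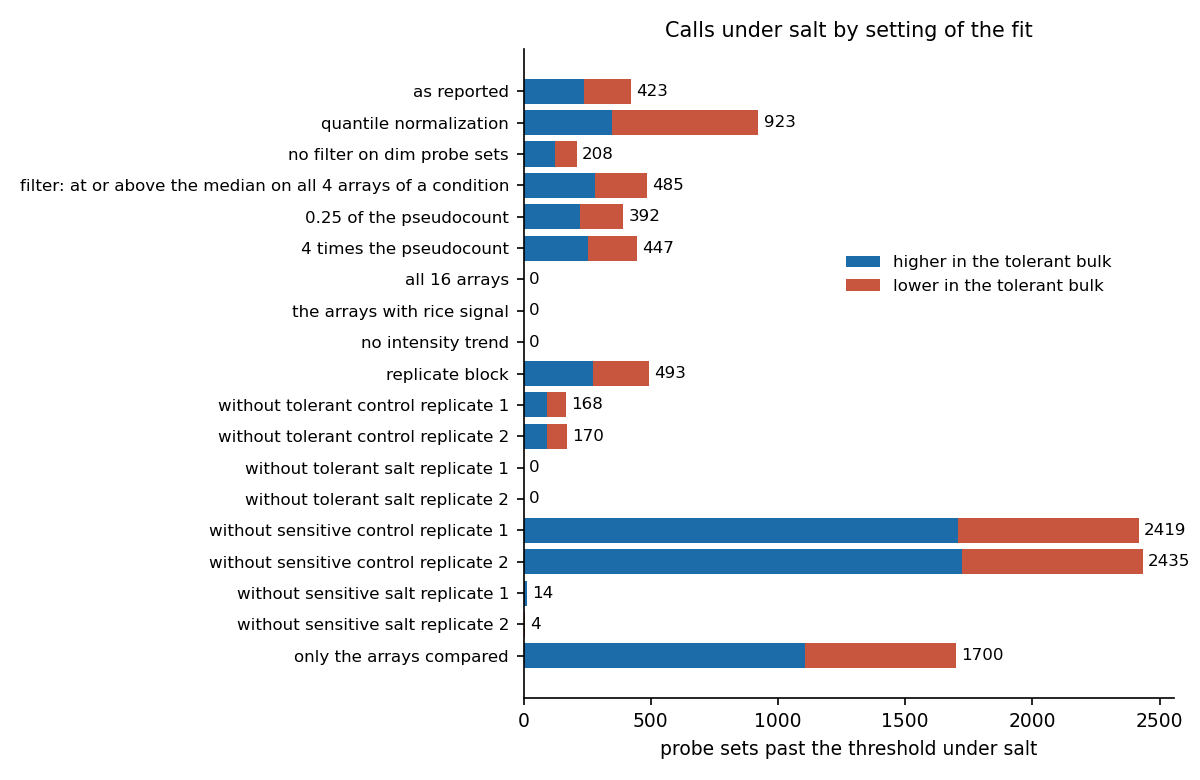
Number of probe sets past an adjusted p of 0.05 between the bulks under salt (horizontal axis), by setting of the fit (rows), with those higher in the tolerant bulk left and those lower stacked to their right. The count is 423 as reported, 0 without either tolerant salt array, and 2419 or 2435 without either sensitive control array.

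Few of the called probe sets, and few of all those tested, have a gene with a name. The platform's annotation gave 1 gene to 111 of the 237 higher (46.8%) and to 144 of the 186 lower (77.4%), against 57.5% of all tested. Named genes were 19 among the higher (20 of 237 probe sets) and 27 among the lower (30 of 186 probe sets). Of all 32996 probe sets tested, 2803 had a named gene. Probe sets whose name begins with OsAffx, designed on predicted genes, were 34.6% of the higher, 13.4% of the lower and 26.8% of all tested. Probe sets ending in x_at, whose probes can also match related sequences, were 16.9%, 11.8% and 13.5%.

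Photosynthesis was the list with the most calls. Of 43 probe sets tested in a list of photosynthesis and photorespiration genes, 8 were lower in the tolerant bulk under salt (0.564% of all tested) and 0 were higher (0.718% of all), and the list's median difference was -0.42 against 0.10 over all probe sets. The tolerant salt arrays lay both below the sensitive ones for 31 of the 43, against 17.5% of all tested. In control the list's median was 0.08 with 0 calls either way (limma, 12 at an unadjusted p under 0.05), and the control median over all probe sets was 0.09. The list was chosen with earlier results of these data known, and its count is 0 without any 1 of the 4 salt arrays (limma, 16 or 17 at an unadjusted p under 0.05), 3 without either tolerant control array and 18 without either sensitive control array.

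Within that list the differences followed the gene and, within genes, the probe set. Thioredoxin m (TRXM), which reduces Calvin cycle and other chloroplast enzymes in the light, had signals of 768 and 743 in the tolerant bulk under salt, against 1655 and 1776 in the sensitive bulk (log2 difference -1.18 ± 0.12 SE, adjusted p 0.0023). Its other probe set had 599 and 526 against 1184 and 1291 (-1.13 ± 0.14, adjusted p 0.0044). The tolerant arrays were low on both probe sets with no overlap, while the control difference was -0.34 and -0.32 and did not pass. Both names end in x_at.

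Rubisco activase (rca), which frees Rubisco of bound sugar phosphates, had 2538 and 2625 against 5302 and 5651 on the called probe set (-1.08 ± 0.15, adjusted p 0.0091). In control the same probe set had 4369 and 5168 in the tolerant and 4396 and 6090 in the sensitive bulk, and the groups overlapped. The other 3 probe sets of rca ran from -0.22 to -0.67 under salt and none passed (adjusted p 0.12 to 0.58). The Rubisco small subunit (RBCS) had 3 probe sets at -0.48, -0.66 and -0.81, and none passed (adjusted p 0.38, 0.13 and 0.078).

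Carbon metabolism gave 2 bisphosphatases of like sign. CFBP1, whose synonym MOC2 belongs to the cytosolic enzyme of sucrose synthesis, had 68.2 and 75.5 in the tolerant and 189 and 149 in the sensitive bulk (-1.18 ± 0.20, adjusted p 0.019), with a second probe set at -0.60 (adjusted p 0.12). FBPase had 200 and 252 against 395 and 400 (-0.81 ± 0.17, adjusted p 0.048), with a second probe set at -0.67 (adjusted p 0.053). Each of the 4 probe sets had both tolerant arrays below both sensitive arrays (17.5% of all probe sets tested), and 1 of each gene passed. Glycolate oxidase GLO5, an enzyme of photorespiration, had 1854 and 1915 against 3029 and 2787 (-0.62 ± 0.11, adjusted p 0.024), and in control 3044 and 3156 against 2518 and 2492. On this probe set the order of the bulks was opposite in control, where the difference of 0.31 did not pass, and the difference between the 2 differences missed the threshold (-0.93, adjusted p 0.056). Its other probe sets were at -0.67 and -0.16 under salt (adjusted p 0.070 and 0.78) and at 0.02 and -0.44 in control (adjusted p 0.98 and 0.43), and did not pass.

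Electron transfer and pigment synthesis gave smaller differences. LFNR1, the leaf ferredoxin-NADP reductase, had 809 and 822 in the tolerant bulk and 1285 and 1219 in the sensitive bulk (-0.61 ± 0.12, adjusted p 0.043). CHLH, the large subunit of magnesium chelatase in chlorophyll synthesis, had 1913 and 1895 against 2956 and 2814 (-0.60 ± 0.12, adjusted p 0.037). The tolerant arrays were low and apart from the sensitive ones for both, and a second, dim probe set of CHLH was at 0.25 (adjusted p 0.82). The light-harvesting proteins CAB2R and LHCP, the brightest members, had differences of -0.14 to -0.27 and did not pass. Named chloroplast genes outside the list were also lower: NDH-M, a subunit of the chloroplast NADH dehydrogenase-like complex (-0.76 ± 0.14, adjusted p 0.026), the plastid aldolase ALDP (-0.87 ± 0.17, adjusted p 0.042) and the thioredoxin-like cdsp32 (-0.92 ± 0.18, adjusted p 0.038).

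All 14 leaf marker probe sets tested were negative under salt, 13 with both tolerant arrays below both sensitive arrays (17.5% of all probe sets tested), and 1 passed. The list's 16 probe sets belong to 8 genes, so the 14 are not separate genes. Of all probe sets tested, 13051 of 32996 were negative under salt. In control their median was 0.33, with 4 of the 14 negative. These markers overlap the photosynthesis list, and the part of leaf tissue in the differences was not tested. Root markers had a median of 0.17 under salt, with 0 of 21 past the threshold (limma, 3 at an unadjusted p under 0.05).

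**Figure D2:**
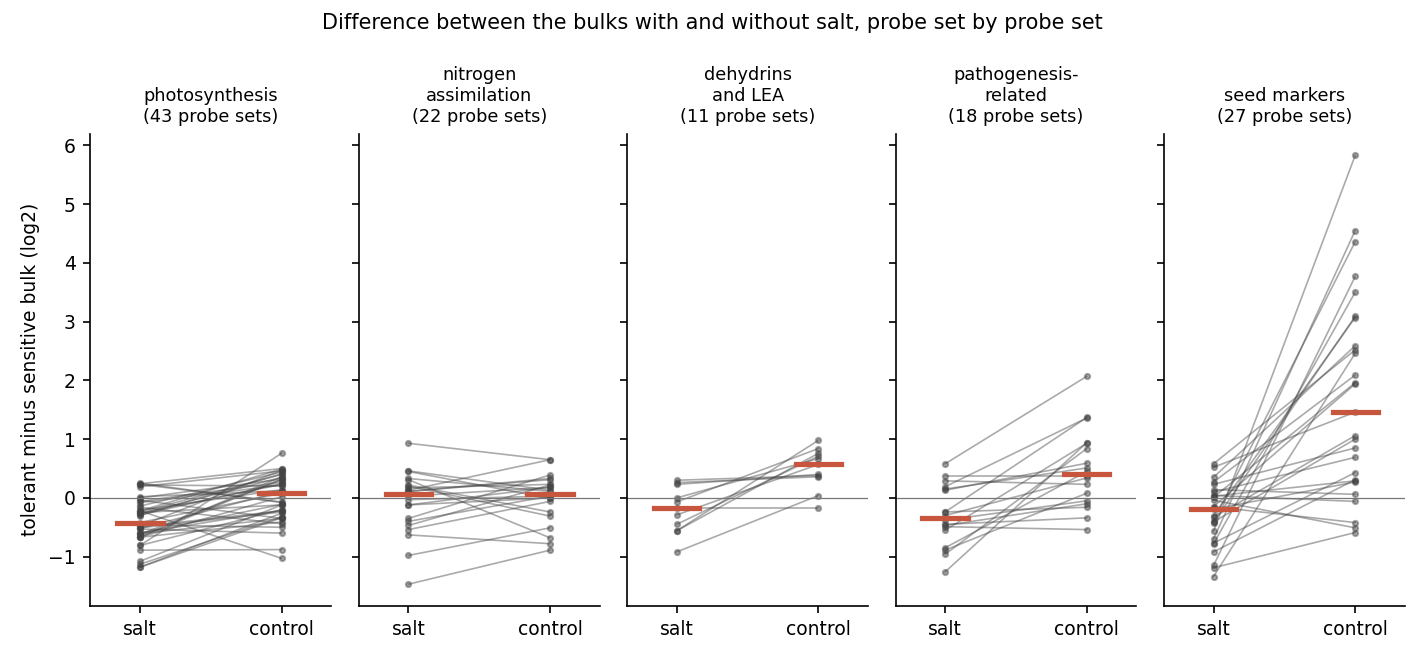
Difference between the tolerant and the sensitive bulk on the log2 scale (vertical axis) under salt and in control for each probe set of 5 lists, with thin lines joining the 2 values of a probe set and thick bars at the list medians. The photosynthesis median is -0.42 under salt and 0.08 in control, and the seed marker median is -0.19 under salt and 1.46 in control.

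Nitrogen assimilation differed through 1 gene. Ferredoxin-dependent glutamate synthase (Fd-GOGAT), which makes glutamate in the chloroplast and takes back photorespiratory ammonium, had 36.6 and 50.9 in the tolerant and 128 and 125 in the sensitive bulk under salt (-1.47 ± 0.22, adjusted p 0.011). A second probe set had 986 and 1033 against 1973 and 2025 (-0.98 ± 0.13, adjusted p 0.0071), and another, at -0.54, did not pass (adjusted p 0.061). All 3, which are of 1 gene, had both tolerant arrays below both sensitive arrays (17.5% of all probe sets tested). In control they differed by -0.89, -0.51 and -0.06 and did not pass (adjusted p 0.083, 0.10 and 0.87). The 2 called probe sets were the only calls among 22 of nitrogen genes, whose median was 0.07. Of all probe sets tested 0.564% were lower. The plastid glutamine synthetase GLN2, its partner enzyme, was at 0.11 and -0.40, and the nitrate reductase NIA1 at 0.22 and 0.13.

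Among 10 probe sets of genes studied for salt tolerance in rice, 2 were lower in the tolerant bulk, both of salT, and 0 were higher. Of all probe sets tested 0.564% were lower and 0.718% higher. The lectin gene salT, isolated from rice as a salt-induced transcript, had 1140 and 977 in the tolerant bulk under salt, against 2040 and 1776 in the sensitive bulk (-0.85 ± 0.14, adjusted p 0.018). Its second probe set had 2987 and 2509 against 4067 and 4122 (-0.58 ± 0.12, adjusted p 0.048). In control the 2 probe sets differed by -0.22 and 0.13 and did not pass. The salt arrays of the tolerant bulk were low for salT, while its control arrays lay near those of the sensitive bulk.

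The dehydrins and late embryogenesis abundant (LEA) proteins, which protect drying cells, gave 0 calls under salt among 11 probe sets (limma, 4 at an unadjusted p under 0.05), with a median of -0.17. RAB21 had 2747 and 2791 in the tolerant and 4078 and 4116 in the sensitive bulk under salt (-0.56 ± 0.13, adjusted p 0.078). In control RAB21 had 241 and 244 against 135 and 109 (0.98 ± 0.13, adjusted p 0.0047). The order of the bulks was thus opposite with and without salt, and the difference of the 2 differences passed (-1.54, adjusted p 0.0074; second probe set -1.17, adjusted p 0.034). RAB16B had 641 and 472 against 839 and 790 under salt and 36.6 and 31.4 against 18.4 and 18.4 in control, and neither difference passed (adjusted p 0.21 and 0.099). RAB16C (-0.29) and RAB16D (0.26) did not pass either. LEA19, also named LEA3, had 605 and 629 against 1222 and 1120, a difference of -0.92 ± 0.30 that did not pass (adjusted p 0.18). With quantile normalization 3 of the 11 were lower under salt.

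Regulators of the salt response gave single calls. Hox22, a homeodomain-leucine zipper factor, had 469 and 494 in the tolerant and 804 and 772 in the sensitive bulk (-0.71 ± 0.13, adjusted p 0.034), and in control 249 and 245 against 272 and 252. The tolerant bulk was low under salt, and the control values were close. Its relative HOX24 had 332 and 297 against 318 and 300, a difference of 0.02 ± 0.24 that is -0.12 with quantile normalization and changes sign when some single salt arrays are left out. Of 81 probe sets of abscisic acid signalling 0 passed (limma, 17 at an unadjusted p under 0.05, beside 4950 of all 32996). Their median was 0.13.

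Ion transporters and osmolyte genes did not separate the bulks at this number of arrays. Among 31 probe sets of potassium and sodium transport 0 passed (limma, 2 at an unadjusted p under 0.05), with a median of -0.08, from HAK13 at 0.69 to HAK5 at -1.43 (adjusted p 0.60 and 0.059). HAK5, a high-affinity potassium transporter, had 21.9 and 11.6 in the tolerant and 50.0 and 50.3 in the sensitive bulk under salt, while its second, brighter probe set was at 0.20 (adjusted p 0.55). HKT1;5, which retrieves sodium from the xylem, had 81.6 and 63.5 against 85.3 and 89.3 (-0.26 ± 0.23, adjusted p 0.63). The proline synthesis genes P5CS1 and P5CS2 had 1152 and 1277 against 1104 and 1067, and 114 and 121 against 87.5 and 77.5. Their differences of 0.16 and 0.50 did not pass (adjusted p 0.74 and 0.34), and a second, dim probe set of P5CS2 was at 0.05.

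Calcium signalling had calls in both directions within 1 kinase family. CIPKs are kinases that calcineurin B-like calcium sensors switch on. CIPK10 had 222 and 224 in the tolerant and 123 and 113 in the sensitive bulk (0.90 ± 0.15, adjusted p 0.016) on one probe set and 141 and 151 against 83.1 and 50.2 on another (1.13 ± 0.24, adjusted p 0.049). Its other 2 probe sets were positive and did not pass (0.76 and 0.39, adjusted p 0.15 and 0.34). CIPK5 had 408 and 399 against 752 and 727 (-0.87 ± 0.13, adjusted p 0.013), and in control 311 and 313 against 351 and 316. The tolerant arrays were thus high for CIPK10 and low for CIPK5 under salt with no overlap. They gave the 3 calls among 94 probe sets of calcium genes, where 1.28% of all probe sets tested were called. The list's median was 0.12, against 0.10 over all probe sets. CIPK24, the kinase of the sodium exclusion pathway, had 310 and 315 against 241 and 220 (0.43 ± 0.15, adjusted p 0.21).

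Jasmonate genes gave 1 call among 31 probe sets, where 1.28% of all probe sets tested were called. JAZ10, a repressor of jasmonate-responsive transcription, had 217 and 199 in the tolerant and 86.1 and 86.8 in the sensitive bulk (1.23 ± 0.16, adjusted p 0.0071), and in control 176 and 174 against 149 and 140. The tolerant arrays were high with no overlap in either condition, and the control difference of 0.27 did not pass. Its second probe set was at -0.10 (adjusted p 0.90). JAZ13 had 99.7 and 126 against 54.8 and 36.7, which did not pass (1.24 ± 0.29, adjusted p 0.072).

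Defence genes gave 1 lower call in each of 2 lists, where 0.564% of all probe sets tested were lower. PBZ1, a pathogenesis-related protein of the probenazole response, had 410 and 394 in the tolerant and 789 and 786 in the sensitive bulk under salt (-0.96 ± 0.13, adjusted p 0.0085). In control it had 636 and 613 against 376 and 322 (0.84 ± 0.13, adjusted p 0.012). Its order was thus opposite in the 2 conditions, and the difference of the differences passed (-1.80, adjusted p 0.0025). It was the 1 call among 18 probe sets of pathogenesis-related genes, whose median was -0.34 under salt and 0.41 in control, where 4 were higher. KSL7, a diterpene cyclase of phytoalexin synthesis, had 64.0 and 54.0 against 120 and 137 (-1.07 ± 0.21, adjusted p 0.035). Its second, dim probe set had 17.7 and 15.8 against 28.5 and 27.8 and did not pass (-0.63, adjusted p 0.52). The 18 probe sets of diterpenoid genes had a median of -0.57 under salt, with 15 negative, and 1 passed, 3 with quantile normalization. In control their median was 0.00, with 9 negative. The list was dim under salt, with median signals of 28.6 and 22.1 in the tolerant and 42.5 and 36.3 in the sensitive bulk. The filter was at 18.3, so these differences are poorly measured. CYP99A2 (-1.66 ± 0.41, adjusted p 0.084) and CYP701A8 (-1.43 ± 0.32, adjusted p 0.065), P450s of the same list, did not pass.

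Redox and metal-binding genes went both ways. MT1B, a metallothionein (a small cysteine-rich metal-binding protein), had 971 and 855 in the tolerant and 414 and 397 in the sensitive bulk (1.16 ± 0.19, adjusted p 0.016). MT4C, another, had 578 and 700 against 330 and 331 (0.94 ± 0.18, adjusted p 0.031), and in control 815 and 781 against 371 and 264 (1.34, adjusted p 0.0033). Both were high in the tolerant bulk with no overlap in either condition. The other 13 probe sets of the family ran from -0.40 to 0.58 and none passed, so the family's median was 0.10. MSRA5, a methionine sulfoxide reductase, had 685 and 755 against 288 and 369 (1.13 ± 0.19, adjusted p 0.021). A gene named only as a peroxidase had 114 and 118 against 258 and 264 (-1.14 ± 0.14, adjusted p 0.0048), and in control 708 and 654 against 587 and 670. Its difference was larger under salt than in control by the test of the differences (-1.26, adjusted p 0.043). Of 25 probe sets of catalases, superoxide dismutases and ascorbate-cycle enzymes 0 passed (limma, 2 at an unadjusted p under 0.05), with a median of 0.06.

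Among chaperones, HSP81-3 of the Hsp90 family had 194 and 191 in the tolerant and 93.9 and 94.8 in the sensitive bulk (1.00 ± 0.21, adjusted p 0.047), while its 3 other probe sets were at -0.13 to 0.02. Of 23 probe sets of small heat shock proteins 0 passed under salt (limma, 2 at an unadjusted p under 0.05), with a median of 0.17. In control 3 of them were higher (1.18% of all tested) and 2 lower (0.27%). The 2 lower, both of HSP18.1, also passed for the difference of the differences (1.27 and 1.26, adjusted p 0.025 and 0.034). That test passed for 0.173% of all probe sets. The entry named HSFA2D had 105 and 116 against 344 and 314 (-1.54 ± 0.16, adjusted p 0.0023), and in control 196 and 168 against 615 and 608 (-1.73 ± 0.16, adjusted p 0.00034). It was low in the tolerant bulk in both conditions, by nearly the same amount. That entry carries names of a heat shock factor and of an acireductone dioxygenase (ARD2), its second probe set was at 0.07, and the value cannot be assigned to either gene. HSF1 had 616 and 674 against 1066 and 1017, a difference of -0.69 ± 0.15 that did not pass (adjusted p 0.061), and passed in control (-1.30, adjusted p 0.0016).

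**Figure D3:**
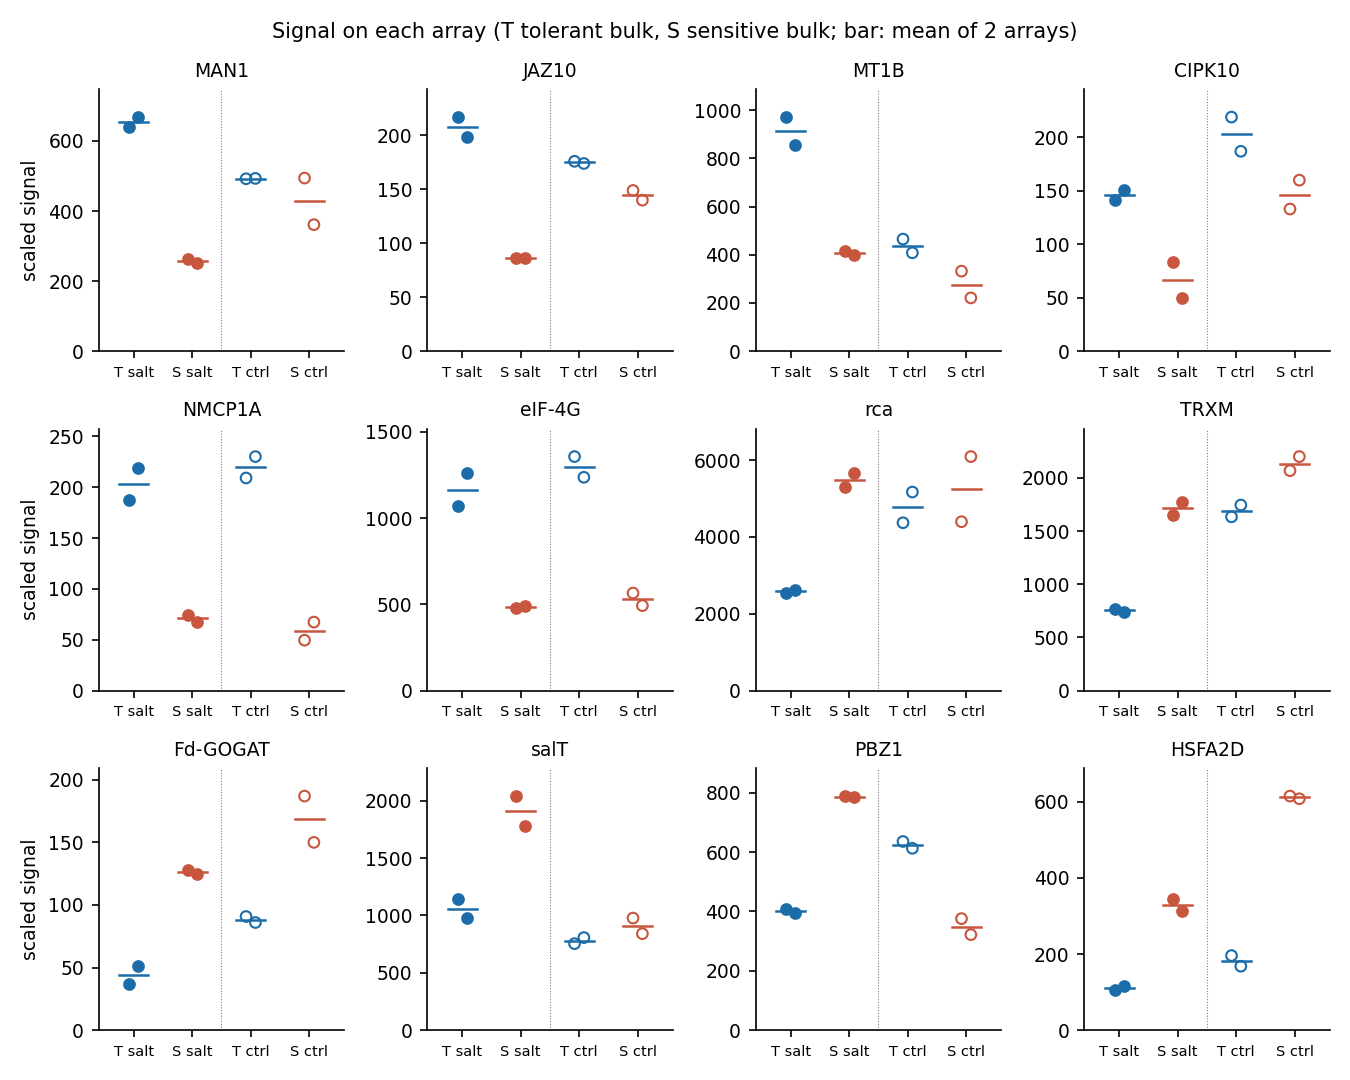
Scaled signal on each array (vertical axes from 0) for 12 named genes, with the tolerant bulk in blue left of the sensitive bulk in red, salt filled and control open; bars are means of 2 arrays. In MAN1 and JAZ10 the salt arrays stand apart and the control arrays lie closer, in NMCP1A, eIF-4G and HSFA2D the gap has the same direction in both conditions, and in PBZ1 the order is opposite in control.

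Cell wall genes gave 3 calls and cell cycle genes 0, on an array where 19945 of all 32996 differences under salt were positive. MAN1, named as an endo-mannanase of the cell wall, had 640 and 668 in the tolerant and 263 and 253 in the sensitive bulk (1.33 ± 0.16, adjusted p 0.0043), and in control 492 and 493 against 494 and 361. EXPB4, a beta-expansin, had 984 and 918 against 616 and 562 (0.69 ± 0.13, adjusted p 0.037). Both were high in the tolerant bulk under salt with no overlap. CSLF6, the synthase of mixed-linkage glucan, went the other way with 616 and 679 against 1042 and 1003 (-0.66 ± 0.13, adjusted p 0.045). These were the 3 calls among 62 cell wall probe sets, whose median was 0.34 with 53 positive. Of all probe sets tested 1.28% were called. In control the cell wall median was 0.20, with 13 of the 62 negative. Of 82 probe sets of cell cycle and replication genes 0 passed (limma, 14 at an unadjusted p under 0.05, beside 4950 of all 32996). Of the 82, 73 were positive and the median was 0.30. In control that median was 0.23, with 16 of the 82 negative. The usual reference genes (tubulins, actins and others) had a median of 0.17, with 30 of 38 positive and 0 past the threshold (limma, 8 at an unadjusted p under 0.05). In control their median was 0.37, with 3 of the 38 negative, against 0.09 over all probe sets.

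**Figure D4:**
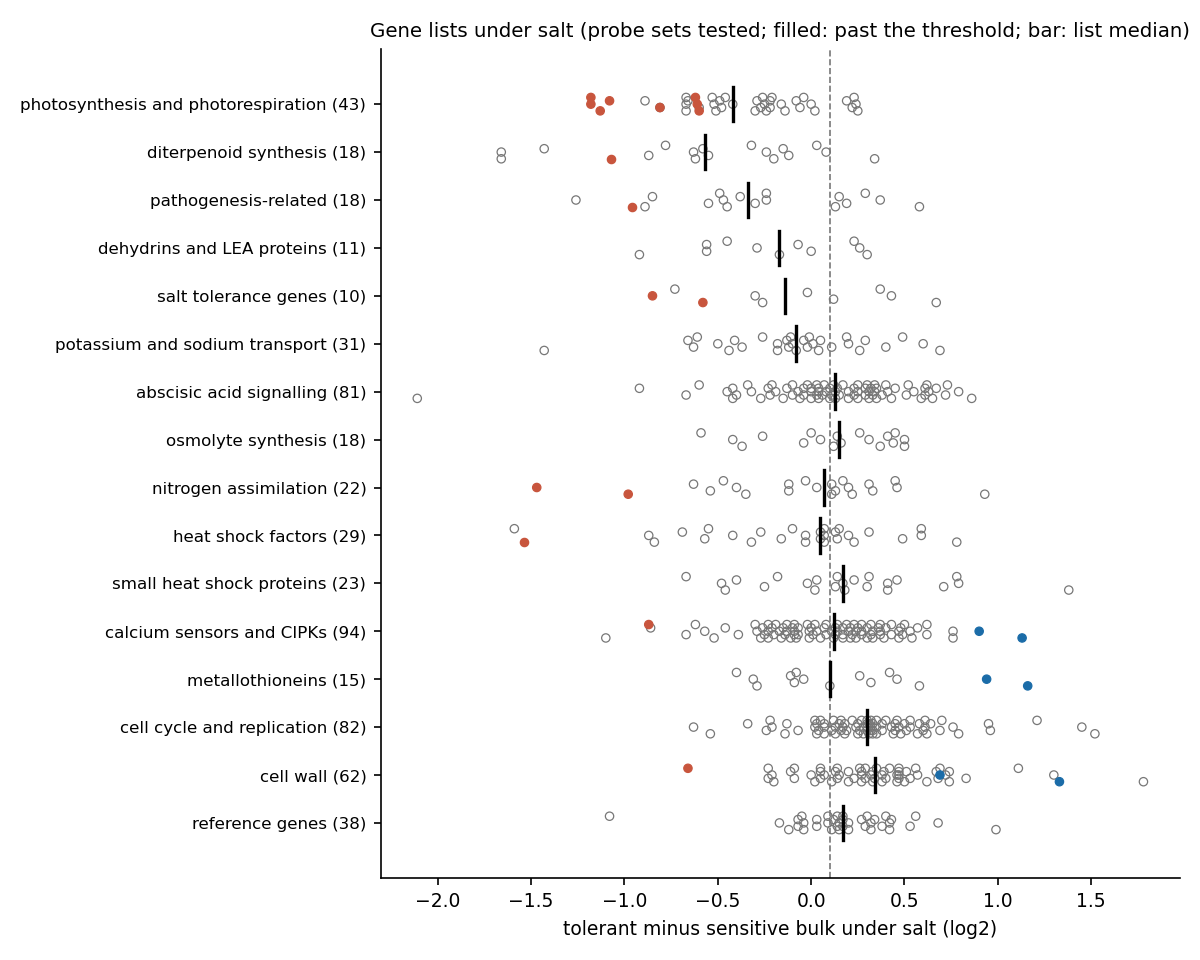
Tolerant minus sensitive difference under salt on the log2 scale (horizontal axis) for each probe set of 16 gene lists (rows, number tested in brackets), filled where past the threshold, with black bars at list medians and a dashed line at the median of all probe sets, 0.10. The photosynthesis median is -0.42 with 8 filled points, and the cell wall median is 0.34.

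Hormone and developmental genes added single calls. FIB, an aminotransferase of auxin synthesis, had 129 and 93.7 in the tolerant and 48.0 and 44.1 in the sensitive bulk (1.19 ± 0.23, adjusted p 0.037), and in control 135 and 118 against 137 and 101. G1L9, of the ALOG family of regulators, had 60.3 and 56.7 against 19.1 and 13.6 (1.63 ± 0.28, adjusted p 0.022), and in control 57.4 and 75.8 against 64.9 and 49.5. For both, the sensitive salt arrays were the low ones and the other 6 arrays lay close. The entry named ELA3 had 161 and 164 against 479 and 423 (-1.45 ± 0.21, adjusted p 0.011), and in control 80.0 and 54.4 against 79.1 and 63.2. Its mean log2 signal exceeded control by 1.25 (tolerant bulk) and 2.60 (sensitive bulk), and the difference of the differences did not pass (-1.36, adjusted p 0.21). The entry carries names of an EUI-like P450 and of an early nodulin-like protein, so it cannot be assigned to either.

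BURP16, of the BURP-domain family, had 319 and 297 in the tolerant and 552 and 533 in the sensitive bulk (-0.81 ± 0.12, adjusted p 0.013), and about the same signal in control (1811 and 2007 against 1908 and 2039). OsC3H2, a zinc-finger protein also named for delayed senescence, had 731 and 749 against 423 and 361 (0.91 ± 0.16, adjusted p 0.023), and in control 314 and 303 against 323 and 251. Its second, brighter probe set had 1404 and 1061 against 933 and 1087 under salt, and the groups overlapped (0.28 ± 0.23, adjusted p 0.63). The remaining named genes that were higher were SAP16 (0.97), AP25 (0.77), UBC5B (0.72), NAL1 (0.67), FIL1 (0.65) and GID2 (0.58), the last an entry that also carries the 14-3-3 name GF14E. Those that were lower were BGLU32 (-0.93), pinA (-0.90), DSM3 (-0.89), HAP3I (-0.83) and ROMT-17 (-0.66). A second probe set of SAP16 was at -0.13 and one of BGLU32 at 0.02, both with overlapping groups.

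NMCP1A, a structural protein of the nucleus, and eIF-4G, the scaffold of translation initiation, differed in the same way with and without salt. NMCP1A had 187 and 219 in the tolerant and 74.6 and 67.8 in the sensitive bulk under salt (1.46 ± 0.20, adjusted p 0.0085), and in control 209 and 230 against 49.6 and 67.4 (1.85, adjusted p 0.0011). The probe set of eIF-4G had 1070 and 1261 against 481 and 491 (1.25 ± 0.14, adjusted p 0.0032), and in control 1357 and 1237 against 566 and 493 (1.29, adjusted p 0.0010). On these probe sets the tolerant arrays did not overlap the sensitive ones in either condition. The other probe sets of eIF-4G were at -0.17 to 0.13 and those of NMCP1A at -0.16 and 0.42, none passed, and on some of them the groups overlapped. Across the named genes that were higher, 13 other probe sets of 7 genes were tested, 8 of them positive, with a median of 0.02. For the lower, 22 other probe sets of 13 genes were tested, 17 of them negative, with a median of -0.28.

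The control arrays, which enter the salt comparison through the common scale, the offset, the filter and the spread, showed how far the differences were there without salt. In control, 480 probe sets passed (1.45%), 391 higher in the tolerant bulk (1.18%) and 89 lower (0.27%). Of the 237 higher under salt, 225 (94.9%) were positive in control too, against 68.0% of all probe sets positive under salt. Of them 106 also passed as higher in control, 44.7% of the 237 and 27.1% of the 391. Of the 186 lower under salt, 147 (79.0%) were negative in control, against 53.7% of all probe sets negative under salt. Of them 27 also passed as lower in control, 14.5% of the 186 and 30.3% of the 89, and 6 passed as higher. Median differences were 1.05 under salt and 0.70 in control for the higher set, and -0.93 and -0.29 for the lower set.

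The test of the difference between the 2 differences passed for 57 of all probe sets (0.173%), 52 of them with a lower (0.158%) and 5 with a higher value under salt (0.0152%). It passed for 14 of the 186 lower probe sets (limma, 118 at an unadjusted p under 0.05) and 0 of the 237 higher (82). This test contains the salt difference that chose the 2 sets, so these counts are a description. By mean values alone, 126 of the 237 higher probe sets were below control in both bulks under salt, 57 were above control in the tolerant and below it in the sensitive bulk, 35 were above control in both and 16 were above it in the sensitive bulk alone. Of the 186 lower, 119 were below control in both bulks and 41 were below control in the tolerant and above it in the sensitive bulk. The median salt response was -0.10 in the tolerant and -0.42 in the sensitive bulk for the higher set, and -0.83 and -0.26 for the lower set, against -0.14 and -0.15 over all probe sets. These responses share arrays with the comparison that chose the sets, and are a description.

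**Figure D5:**
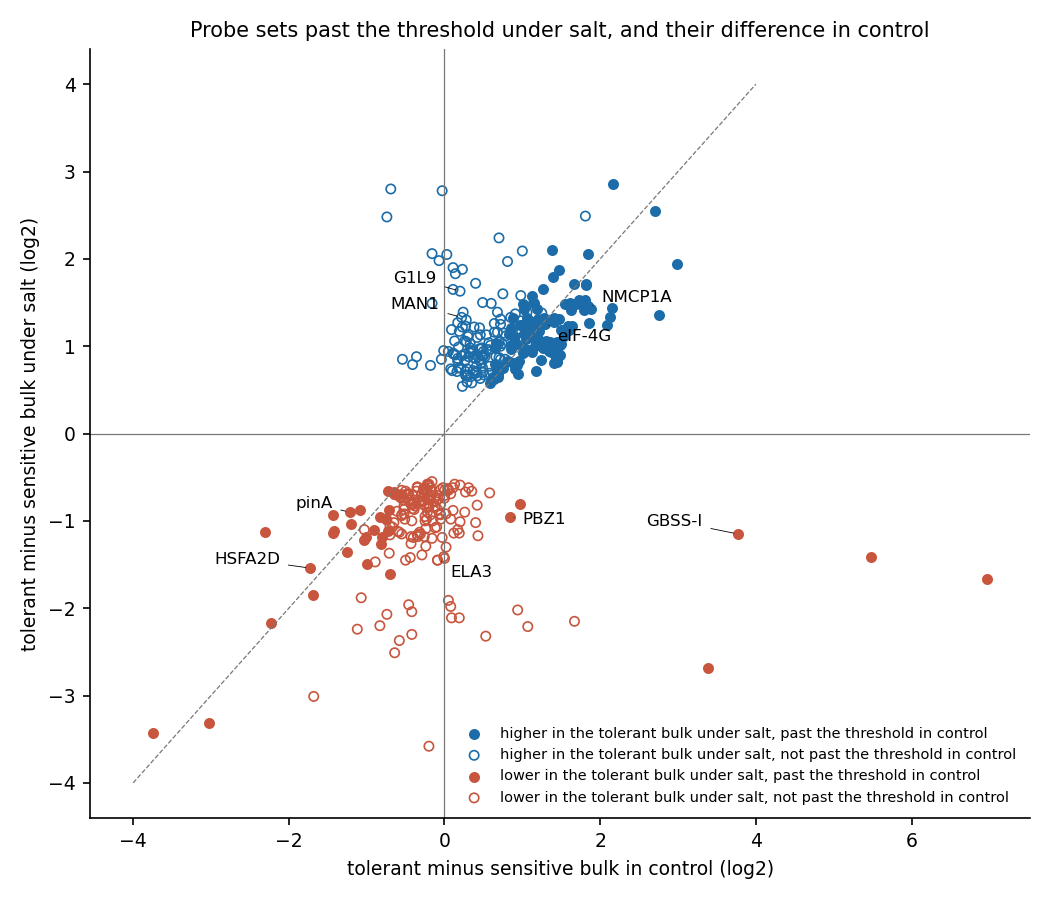
Tolerant minus sensitive difference on the log2 scale under salt (vertical axis) against the same difference in control (horizontal axis) for the 423 probe sets past the threshold under salt, filled where they also pass in control; the dashed line marks equal differences. Higher probe sets lie mostly right of 0, at a median of 0.70 in control, and 6 lower ones, PBZ1 and GBSS-I among them, pass as higher in control.

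The 6 that changed sides between control and salt included GBSS-I, the granule-bound starch synthase of the endosperm. It had 573 and 583 in the tolerant and 1312 and 1268 in the sensitive bulk under salt (-1.15 ± 0.22, adjusted p 0.037), and in control 3807 and 4768 against 231 and 414 (3.77 ± 0.22, adjusted p 1.2e-05). The probe set's name ends in x_at. Beside GBSS-I and PBZ1 there were 4 probe sets without a named gene, at -0.81, -1.41, -1.67 and -2.68 under salt and 0.97, 5.48, 6.97 and 3.38 in control. Seed markers as a whole had a median of -0.19 under salt, with 1 of 27 lower, and of 1.46 in control, with 10 higher. Of all probe sets tested 0.564% were lower under salt and 1.18% higher in control. The list's 29 probe sets belong to 17 genes, so the 27 are not separate genes. Their median signals under salt, 24.8 and 22.6 against 31.9 and 32.5, lay near the filter of 18.3. The part of seed material in these differences was not tested.

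The probe sets without a named gene held the widest differences. The widest on the higher side had 384 and 351 in the tolerant and 40.2 and 55.0 in the sensitive bulk (2.86 ± 0.26, adjusted p 0.0023), and in control 764 and 764 against 229 and 123. The next on that side had 45.7 and 64.0 against 4.03 and 4.70 (2.80 ± 0.56, adjusted p 0.042), and at most 11.4 on the control arrays. On the lower side, one had 3.52 and 7.78 against 79.8 and 119 (-3.43 ± 0.48, adjusted p 0.0085), and in control 5.55 and 2.44 against 158 and 63.5. The widest of the lower side had 8.02 and 9.58 against 156 and 142 (-3.58 ± 0.38, adjusted p 0.0028), and in control 31.2 and 59.0 against 33.7 and 73.7. The widest on the higher side and the one at -3.43 passed in control as well and the other 2 did not, and the difference of the differences passed for the one at -3.58 (-3.38, adjusted p 0.043). Signals under 18.3 lie below the filter, so the dim side of these folds is poorly measured. It was under the filter on both tolerant arrays for 15 and on both sensitive arrays for 12 of the 423, and none of those is a named gene.

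Called genes were spread over all chromosomes. Of 15834 genes placed by gene order on assembly ASM3414082v1, 1.55% were called, from 0.939% on chromosome 2 to 2.28% on chromosome 11, with 2.21% on chromosome 3. Next to each other in the gene order were 3 pairs of called genes with the same sign and 2 with opposite signs. The first pair, on chromosome 6, differed by 2.55 and 2.24 under salt. The pair on chromosome 7 differed by -1.61 and -1.26, and that on chromosome 4 by -0.65 and -0.94. None of these 6 genes has a name in the table used. In control the chromosome 7 pair passed in the same direction (-0.70 and -0.81), and of the chromosome 6 pair 1 did (2.71 and 0.70).

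The parents' arrays gave no test, since CSR27 had 1 array with rice signal per condition against 2 of MI48. Under salt the CSR27 array lay above both MI48 arrays for 28.7% of the 237 higher probe sets, against 31.1% of all probe sets tested. It lay below both for 21.5% of the 186 lower probe sets, against 40.1% of all. In control the same shares were 25.7% against 31.7%, and 16.7% against 29.2%. The CSR27 array lay above both MI48 arrays for 50.5% of the lower probe sets in control, against 31.7% of all, which is opposite to the order of the bulks. Under salt it did so for 25.8%, against 31.1% of all. These shares describe 1 array against 2.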

How the data were processed

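Probe set intensities from 16 rice arrays were used as the authors deposited them; per the submitters' processing notes they were made with GCOS 1.2, and the scaling of each array is not given in the sources used here. Of 57381 probe sets, 123 AFFX controls were left out. The 8 bulk arrays were multiplied to a common median (factors 0.701 to 1.24), 3.98 (their 25th percentile) was added and log2 taken. limma 3.58.1 in R 4.3.3 fitted the means of 4 groups of 2 arrays, with an intensity trend in the prior. Tests were two-sided, with Benjamini-Hochberg adjustment over 32996 probe sets at a threshold of 0.05, and the median residual SD was 0.262 (log2). The salt and control comparisons compare different arrays but share this spread, the scale, the offset and the filter. The fit was tested on simulated data.

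GEO's platform annotation gave 1 gene to 22436 probe sets, several to 95 and none to 34727; names and gene order came from RefSeq (ASM3414082v1), which named 2458 of 17905 genes. Named are the called genes of largest difference each way, called list members and the widest unnamed probe sets. Genes of the salt response were set without regard to value, and for potassium and sodium transport the highest and lowest are named. HSF1, HSP18.1, JAZ13, CYP99A2, CYP701A8, CIPK24, RBCS, CAB2R, LHCP, GLN2, NIA1 and the remaining called genes were named after their values were seen. SOS1, NHX1 and RAB16A were not matched by name. Members and lists were chosen with earlier results of these data known. Replicate numbers did not pair arrays (correlations of replicate differences from -0.00049 to 0.027). Alternatives were normalization, filter, pseudocount, arrays in the fit, the trend, a replicate block and leaving out each array.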

Additional observations from a re-analysis of the deposited data

Results flagged for a closer look

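The difference between the tolerant and the sensitive bulk was itself different under salt and in control for 57 probe sets (limma interaction, adjusted p under 0.05). Among the genes named above, those lower under salt relative to control were GBSS-I (-4.92, and -2.09 on another probe set), RAB21 (-1.54 and -1.17), PBZ1 (-1.80) and the peroxidase (-1.26). The probe set without a named gene at -3.58 under salt (-3.38) was lower too. HSP18.1 went the other way on 2 probe sets (1.27 and 1.26). Of the 27 seed marker probe sets tested, which are not separate genes, 7 were among the 57, against 0.173% of all probe sets tested.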

How the results depend on the processing

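With 2 arrays a group, the counts moved with the fit. Under salt, against 423, quantile normalization gave 923, no filter on dim probe sets 208 and the 4 salt arrays alone 1700. limma called 0 with all 16 arrays (145 at an unadjusted p under 0.05), 0 with the 14 arrays with rice signal (883) and 0 without an intensity trend (4128). In control, against 480, the same settings gave 722, 298 and, from the 4 control arrays alone, 123, then 0 (158), 1 and 91. For the difference of the differences, against 57, no filter gave 36, all 16 arrays 0 (115), arrays with rice signal 0 (496) and no trend 19. Leaving out 1 array gave 0 to 2435 under salt, 109 to 3149 in control and 25 to 282 for the difference of the differences. Without sensitive control replicate 1 or 2 the control count was 3149 or 1418, and without tolerant control replicate 1 or 2 it was 200 or 109. The cause was not tested.

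The 423 kept their sign in every setting where they were tested, and 408 of them passed with quantile normalization and 206 without the filter. Most settings reuse the same salt arrays, which did not overlap for any of the 423, so kept signs are a description. Of 65 named results, 54 no longer passed with all 16 arrays or without the trend and 28 without the filter, with the same direction, and none that passed was reversed. With the replicate number as a block, which does not pair these arrays, the counts were 493, 574 and 61.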

Other observations

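A list of auxin transport and signalling genes, which does not hold FIB, gave 0 calls among 63 probe sets (limma, 13 at an unadjusted p under 0.05). Of these, 54 were positive under salt, beside 19945 of all 32996, with medians of 0.16 and 0.10. In control 14 of the 63 were negative, with a median of 0.20 against 0.09 over all probe sets. The 29 aquaporin probe sets had a median of -0.02 under salt and 0.50 in control. The reference genes had medians of 0.17 and 0.37, so a higher median in control was not particular to aquaporins. On chromosome 1, pinA and a gene 2 genes away were both lower in the tolerant bulk under salt (-0.90 and -1.18) and in control (-1.22 and -0.80). On chromosome 3, the gene 2 genes away from HSFA2D was higher by 1.28 under salt and 1.14 in control, opposite to HSFA2D.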
